A study of Drosophila melanogaster with 4 samples.

Results

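The bithorax complex is the cluster of 3 Hox genes, Ubx, abd-A and Abd-B, on chromosome arm 3R of Drosophila melanogaster. Its histone H3 lysine 27 trimethylation (H3K27me3) was described here from regions of enrichment, called clusters, found by chromatin immunoprecipitation and sequencing (ChIP-seq) in larvae of the third instar. Members were the clusters of 3 deposited lists that overlap 3R:12470000-12830000 on FlyBase release 5 by at least 1 bp. There were 4 of 2510 clusters in ChIP replicate 1, 4 of 1819 in ChIP replicate 2, and 4 of 4966 in a combined list for the whole series.

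The series held 2 libraries of DNA precipitated with a mouse monoclonal antibody against H3K27me3 and 2 of input DNA. All 4 came from wild-type flies of the Oregon-R-modENCODE strain, as larvae collected from bottles, with no transgene or treatment in either group. No list was used for the input. The design therefore has 1 condition and no control list, and the values below are descriptions with the spread between the 2 replicate lists, without tests of significance. The labels do not say whether the replicates were separate collections, so that spread may be technical. Sequencing depth is unknown.

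Hox genes encode homeodomain transcription factors that set the identity of body segments along the head-to-tail axis. Ubx acts in the posterior thorax and anterior abdomen, abd-A in the middle abdomen, and Abd-B in the posterior abdomen. In segments where such a gene is silent, Polycomb group proteins keep it so: Polycomb repressive complex PRC2 trimethylates lysine 27 of histone H3, and PRC1 binds the modified chromatin. The complex is a classical target of both. Larval chromatin mixes cells in which these genes are on and cells in which they are off, and a cluster does not tell which cells carry the mark.

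Gene positions were available for release 6 of the genome. Subtracting the 3R offset of 4174278 bp placed Ubx at 12482345 to 12560148, abd-A at 12632936 to 12655771 and Abd-B at 12752934 to 12797958 on release 5, so all 3 members fell inside the window. Of 4224 genes of 3R, 20 fell before the first base of the release 5 arm and were left out, and none of the 4224 ended beyond the arm length of 27905053 bp in the file headers. The gene table gives no strand. As background, all 3 Hox genes are transcribed towards lower coordinates, so the left (lower) end of each is its 3′ end. Left is also the side of the centromere.

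The bithorax complex was marked almost from end to end in both replicates. From the left end of Ubx to the right end of Abd-B, a span of 315.6 kb, clusters covered 98.2% in replicate 1 and 98.7% in replicate 2 (98.5% ± 0.350, SD, n = 2). Over the whole window the covered share was 88.8% in replicate 1 and 91.4% in replicate 2 (90.1% ± 1.80, SD, n = 2), and the combined list covered 91.2%. The lower share of the window came from its flanks, which hold other genes.

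The mark was not split at the genes. In each list 2 wide clusters held nearly all of it: one over Ubx and the other over both abd-A and Abd-B. These 2 clusters made up 98.8% of the covered sequence of the window in replicate 1 and 99.1% in replicate 2. The cluster over Ubx was 99.3 kb wide in replicate 1 and 101.4 kb in replicate 2. The cluster over abd-A and Abd-B was 216.6 kb wide in replicate 1 and 224.5 kb in replicate 2. The other 2 clusters of each list were narrow pieces at the outer ends, 1.37 and 2.51 kb wide in replicate 1, and 1.42 and 1.58 kb wide in replicate 2.

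**Figure D1:**
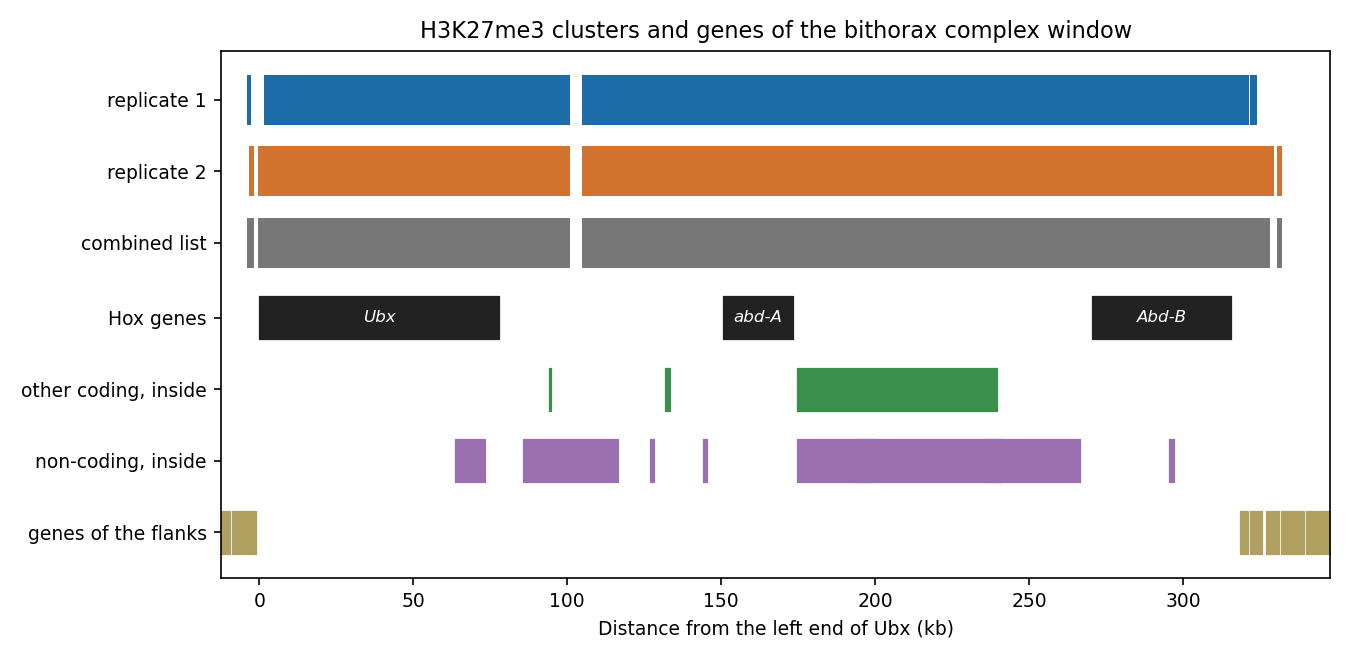
Clusters of the 2 replicate lists and the combined list (bars, upper rows) and annotated genes (lower rows) across the window, against distance from the left end of Ubx in kb. In every list 2 wide clusters span the 3 Hox genes and meet at the same gap between Ubx and abd-A.

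Among the 3 Hox genes, abd-A and Abd-B were covered over every base in both replicates. The abd-A gene, 22.8 kb long, and the Abd-B gene, 45.0 kb long, each had 100% in replicate 1, replicate 2 and the combined list. Ubx, the longest at 77.8 kb, had 98.1% in replicate 1 and 100% in replicate 2 (99.0% ± 1.36, SD, n = 2), and 100% in the combined list. What replicate 1 left uncovered in Ubx was the outermost 1501 bp at its left end.

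These shares stand well above the background of the arm. Of the 4204 placed genes of 3R, 8.59% were covered over at least 50% of their length in replicate 1 and 9.82% in replicate 2, and all 3 Hox genes were in both sets. Every base was covered in 5.61% of the genes in replicate 1, which included abd-A and Abd-B, and in 7.73% in replicate 2, which included all 3. Among the 245 genes of 20 kb or more, 10.6% reached at least 50% cover in replicate 1 and 12.7% in replicate 2, while 3.27% were fully covered in replicate 1 and 6.53% in replicate 2. The median gene of the arm had 0% in both replicates. By length Ubx ranked 26, Abd-B 81 and abd-A 216 among the 4204 genes. The members were chosen as known Polycomb targets with these lists already examined, so their place against this background is a description.

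**Figure D2:**
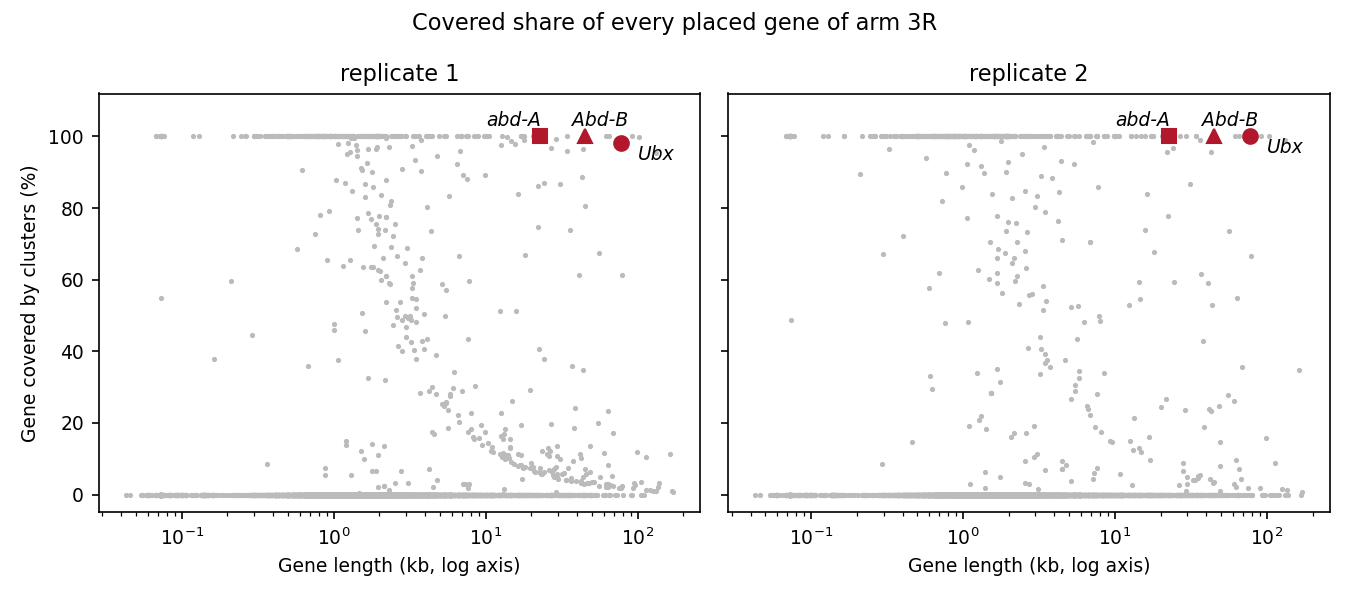
Share of each placed gene of 3R covered by clusters (%, vertical axis) against gene length (kb, log axis), for replicate 1 (left) and replicate 2 (right). Ubx, abd-A and Abd-B (red) lie between 98.1% and 100%, while the median gene (grey points show all genes) lies at 0%.

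The spacers between the Hox genes, where much of the regulatory DNA of the complex lies, were marked as well. The spacer between abd-A and Abd-B, 97.2 kb long, was covered at every base in both replicates. The spacer between Ubx and abd-A, 72.8 kb long, was covered at 94.3% in replicate 1 and 94.4% in replicate 2 (94.3% ± 0.0612, SD, n = 2). A single gap accounts for all of the uncovered sequence in this spacer. Because the mark ran on through the spacers, the nearest uncovered base lay 45.7 kb from the left end of abd-A and 68.5 kb from its right end in both replicates. For the left end of Abd-B it was 51.0 kb away in replicate 1 and 58.8 kb in replicate 2.

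**Figure D3:**
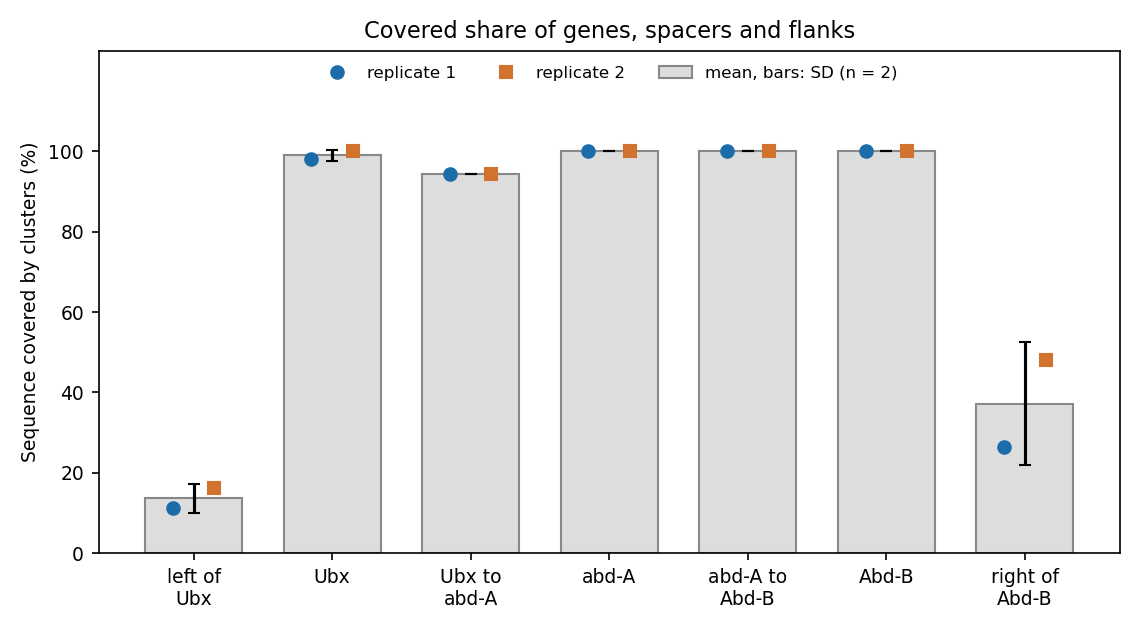
Share of sequence covered by clusters (%) in the 3 Hox genes, the 2 spacers and the 2 flanks of the window. Circles are replicate 1, squares replicate 2, and bars the mean with SD (n = 2). Genes and spacers lie between 94.3% and 100%, and the flanks between 11.1% and 48.0%.

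The gap lay inside lncRNA:bxd, a non-coding RNA gene of the bithoraxoid region, whose DNA regulates Ubx and contains a Polycomb response element, a site that recruits Polycomb complexes. It ran from 12583116 to 12587279 in replicate 1 (4164 bp) and from 12583129 to 12587229 in replicate 2 (4101 bp), with 4086 bp in the combined list. The 4101 bp of replicate 2 were open in both replicates. The gap began 22968 bp right of Ubx in replicate 1 and 22981 bp in replicate 2, and ended 45657 and 45707 bp left of abd-A in these lists. No other gene of the table overlapped it. It left lncRNA:bxd, 31.1 kb long, with 86.6% covered in replicate 1 and 86.8% in replicate 2 (86.7% ± 0.143, SD, n = 2). The gene table holds no response elements, so the place of the element relative to the gap was not measured. How many reads can be placed in the gap, and whether the Oregon-R genome matches the reference there, was not tested.

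The replicates placed the 2 borders of this gap almost identically and the outer borders of the domain much less so. The left border of the gap differed by 13 bp and its right border by 50 bp. At the outer left edge of the Ubx cluster the replicates differed by 2091 bp, and at the outer right edge of the abd-A and Abd-B cluster by 7862 bp. For scale, the 270 edges of replicate 1 clusters of 20 kb or more on the 6 arms lay a median of 1192 bp from the nearest replicate 2 edge of the same side, with quartiles of 299 and 13352 bp. Only 5 of the 270 edges were as close as 13 bp, and 11 as close as 50 bp, the gap borders included, whereas 147 were as close as 2091 bp and 185 as close as 7862 bp. Some of the 270 edges are breaks inside a longer replicate 2 cluster and were matched to a distant edge, such as an edge inside Antp at 144389 bp. The upper quartile and these counts thus do not measure the placing of borders alone.

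Coding genes nested in the complex carried the mark along with the Hox genes. Between the outer ends of Ubx and Abd-B the table has 3 further protein-coding genes, and all 3 were covered at every base in both replicates. Over all placed genes of 3R the fully covered share was 5.61% in replicate 1 and 7.73% in replicate 2. The 3 genes lie under the 2 wide clusters, so their cover follows from that of the span. The 3 are CG31275, Glut3, which belongs to a family of sugar transporters, and MSAmiP, whose 65.2 kb span lies in the spacer between abd-A and Abd-B. Their levels of transcription were not measured in this series.

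Non-coding RNA genes of the complex were covered to the same extent. Of 11 such genes, 10 were covered at every base in both replicates, and lncRNA:bxd was the exception through its gap. The fully covered share of all placed 3R genes was 5.61% in replicate 1 and 7.73% in replicate 2. The 11 genes lie along the same 2 wide clusters, so this count too follows from the cover of the span. The largest of the 11 was lncRNA:iab8, a 92.1 kb gene that fills most of the spacer between abd-A and Abd-B and is the precursor of the microRNA mir-iab-8. The covered genes also included lncRNA:iab4, the 6.49 kb precursor of mir-iab-4. Both microRNAs, which repress Hox genes of the complex, are processed from opposite strands of 1 hairpin locus at 12681997 to 12682064, and that locus was 100% covered. Clusters carry no strand, so the mark at this locus belongs to both microRNA genes alike.

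On the left the domain stopped close to the 3′ end of Ubx. In replicate 2 the Ubx cluster began 590 bp beyond the gene, and in the combined list 464 bp beyond it. In replicate 1 it began 1501 bp inside the gene. The next gene, modSP, which encodes a serine protease that acts upstream of Toll in innate immunity, carried a narrow piece of its own, with 42.7% of the gene covered in replicate 1 and 44.1% in replicate 2. The pieces of the 2 replicates overlapped only in part: replicate 2 covered 47.7% of the replicate 1 piece, and replicate 1 covered 46.2% of the replicate 2 piece. Between this piece and the Ubx cluster lay 4133 uncovered bp in replicate 1 and 1279 in replicate 2.

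Beyond modSP the mark was not found in the left flank. The other 5 genes there, Arl6IP1, CG10324, CCT3, Mettl4 and CG14907, were all at 0% in the 3 lists. CCT3 encodes a subunit of the cytosolic chaperonin that folds actin and tubulin. CG14907 was the first protein-coding gene beyond the outermost cluster on this side. The next cluster to the left lay 19.7 kb away in replicate 1 and 18.7 kb away in replicate 2, over Fas1, a cell adhesion gene with 15.5% covered in replicate 1 and 54.6% in replicate 2.

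On the right the domain ran past Abd-B and the replicates parted. The cluster ended 5.93 kb beyond the 5′ end of Abd-B in replicate 1 and 13.8 kb beyond it in replicate 2, with 12.6 kb in the combined list. In replicate 1 a narrow piece followed after 94 uncovered bp and ended 8.53 kb beyond the gene. VhaM9.7-d, which encodes a subunit of the vacuolar proton pump, and Actn3, of the alpha-actinin family, were covered at every base in both replicates. AhcyL2, related to the enzyme that hydrolyses S-adenosylhomocysteine, had 62.6% in replicate 1 and 100% in replicate 2. CG18622 had 0% in replicate 1 and 76.3% in replicate 2, the widest disagreement of any gene in the window, with 47.7% in the combined list. The short gene lncRNA:CR45592, under the last narrow piece of replicate 2, had 0% in replicate 1 and 8.47% in replicate 2.

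The mark ended before MESK4, the first protein-coding gene beyond the outermost cluster on the right. MESK4 and 8 further genes up to Irc, an immune-regulated catalase, were at 0% in all 3 lists. The group includes EMC2A and EMC2B, which encode subunits of a membrane protein insertion complex, and the splicing factor gene Sf3a1. The next cluster to the right lay 30.5 kb away in replicate 1 and 36.5 kb away in replicate 2. The right flank of the window, 32.0 kb from the end of Abd-B, was covered at 26.3% in replicate 1 and 48.0% in replicate 2 (37.2% ± 15.3, SD, n = 2). The left flank, 12.3 kb, was covered at 11.1% and 16.3% in these lists (13.7% ± 3.64, SD, n = 2).

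**Figure D4:**
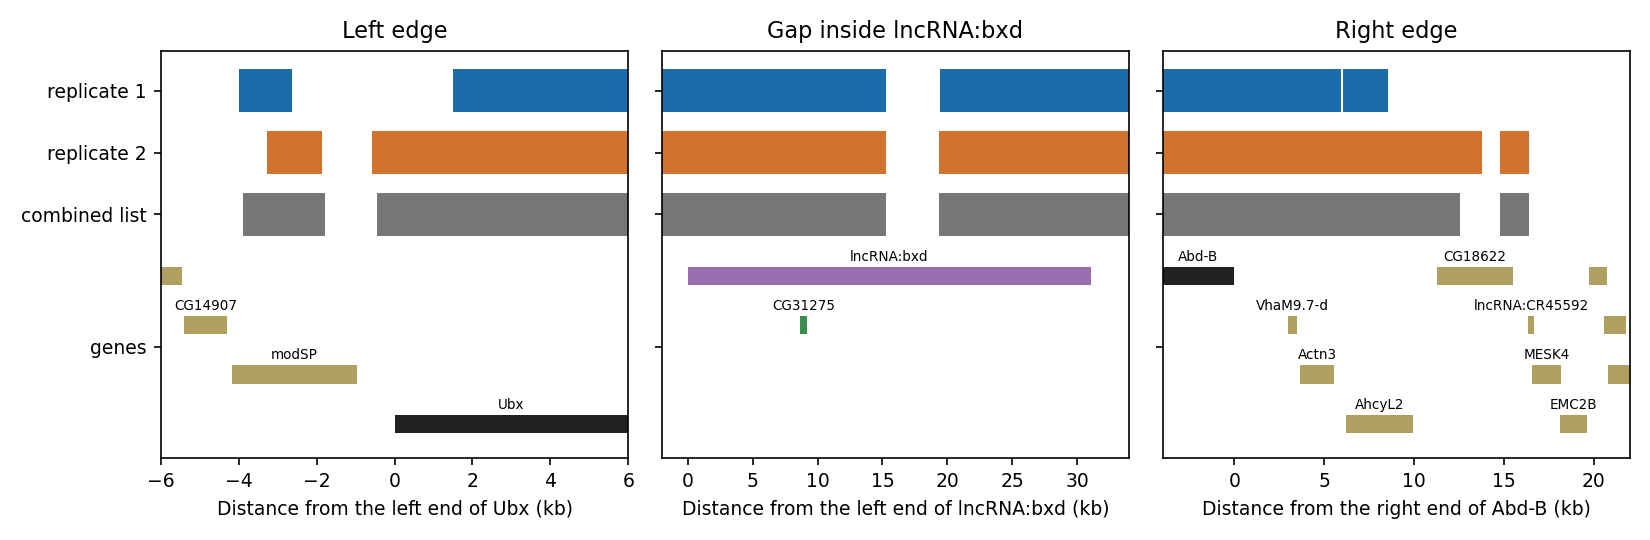
Clusters at the left edge, at the gap inside lncRNA:bxd and at the right edge (bars), with annotated genes below, against distance in kb from the left end of Ubx, the left end of lncRNA:bxd and the right end of Abd-B. The borders of the gap differ by 13 and 50 bp between replicates, and the outer edges by 2091 and 7862 bp.

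Inside the window the replicates shared 319.0 kb, 96.8% of the sequence covered in either (the Jaccard index), against 70.9% over the whole of 3R, the window included. With 88.8% of the window covered in replicate 1 and 91.4% in replicate 2, most of it had to be shared wherever the edges fell. The contrast with 3R therefore does not measure agreement on its own. Sequence covered in replicate 1 alone came to 718 bp, all of it in modSP. Sequence covered in replicate 2 alone came to 9857 bp, of which 70.4% lay right of Abd-B and 21.2% at the left edge of the Ubx cluster. Between the outer ends of Ubx and Abd-B the index was 99.5%, where cover of 98.2% and 98.7% left little room for a lower value. Replicate 2 contained 99.8% of the replicate 1 sequence of the window, and replicate 1 contained 97.0% of the replicate 2 sequence.

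The window is 1.29% of 3R by length and held 9.12% of the covered sequence of the arm in replicate 1 and 8.40% in replicate 2. It was set beside 329 other windows of the same length that tile the 6 arms, without the grid windows that overlap it. The bithorax window was placed around a known domain, whereas the others lie on a fixed grid that can cut domains. Its rank among them is thus partly a matter of placement. The median window was covered at 5.20% in replicate 1 and 6.74% in replicate 2, and 1 window had a share at or above that of the bithorax window in each replicate. That window, on 3R from 2520008 to 2880008, had 94.5% in replicate 1 and 98.5% in replicate 2, and overlaps most of the Antennapedia complex, the other Hox cluster of the fly, without lab at its left end. After it came a window of 3R with 62.4% in replicate 1 and 67.5% in replicate 2. In the overlap of the replicates, 3 of the 321 windows with any cover reached the 96.8% of the bithorax window or more, and the median was 38.9%. Those 3 windows were covered less, at 18.7%, 34.8% and 53.4% on average over the replicates. The index is bound to be high where cover is high, so the contrast with the median window says little on agreement.

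The 2 Hox complexes were both nearly filled but differed in how often the mark was interrupted in replicate 1. From Ubx to Abd-B there were 2 clusters in each replicate. From lab to Antp, a span of 337.8 kb, there were 13 clusters in replicate 1 and 4 in replicate 2. The combined list had 2 clusters from Ubx to Abd-B, covering 98.7%, and 3 from lab to Antp, covering 98.4%. Replicate 1 also held more clusters in the whole series, 2510 against 1819 in replicate 2. Covered shares were 98.2% in replicate 1 and 98.7% in replicate 2 from Ubx to Abd-B, and 94.1% and 98.4% from lab to Antp in these lists. With 2 replicates the difference was not tested. Of all genes of the table inside each span, Hox genes included, 17 of 17 from Ubx to Abd-B were covered over at least 50% in both replicates. From lab to Antp it was 36 of 45 in replicate 1 and 41 of 45 in replicate 2, with 9 and 4 genes at 0% in these lists. The 4 at 0% in replicate 2 were short tRNA and signal recognition particle (SRP) RNA genes left of Scr. Replicate 1 also left these at 0%, with a tRNA gene and an SRP RNA gene beside them, lncRNA:CR33938, Ccp84Ab and Ccp84Aa. Of the genes at 0% in replicate 1 alone, replicate 2 covered all at every base except the SRP RNA gene, covered in part. How many reads can be placed in the tRNA and SRP RNA genes was not tested. A list of 10 Antennapedia complex genes, picked as known members, lay between 95.9% and 100% in replicate 1 and at 100% in replicate 2. All 23 ribosomal protein genes of 3R, housekeeping genes, were at 0% in both replicates, as were most genes of the arm, 86.3% of all 4204 in replicate 1 and 87.4% in replicate 2.

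**Figure D5:**
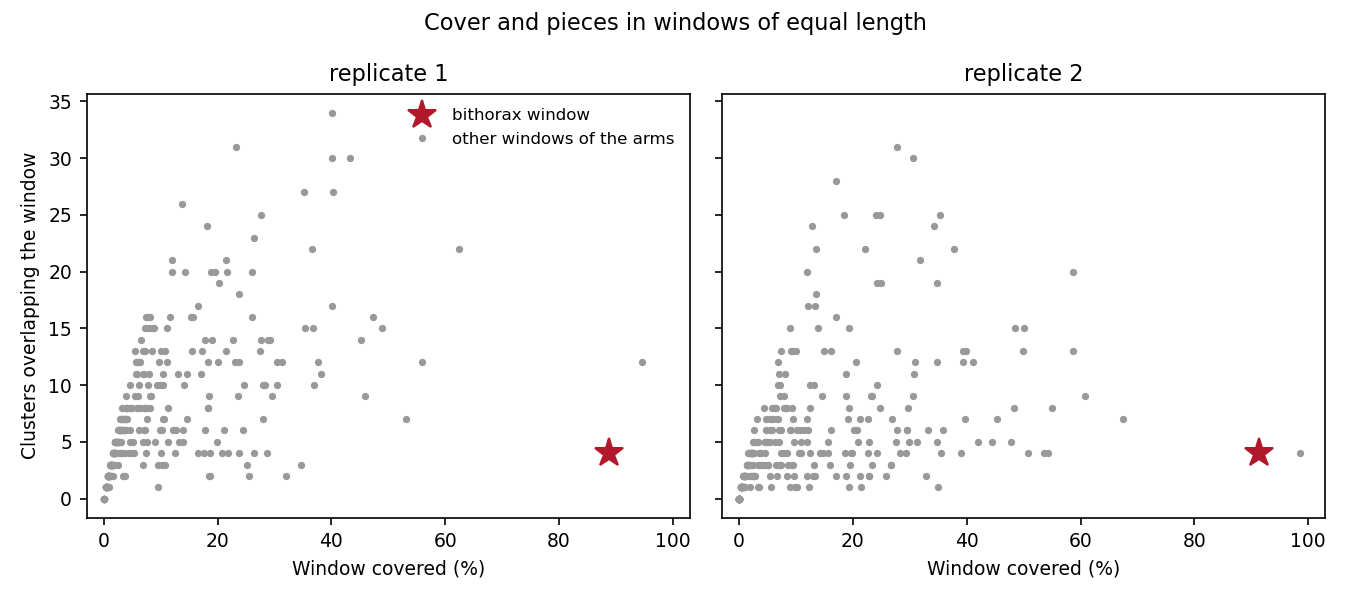
Number of clusters overlapping a window (vertical axis) against the share of the window covered (%), for the bithorax window (star) and 329 other windows of equal length on the 6 arms (grey), in replicate 1 (left) and replicate 2 (right). The bithorax window has 4 clusters at 88.8% and 91.4% cover.

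The clusters over the complex were among the widest of each list, and their ranks by the authors' score are given beside those by width. The cluster over abd-A and Abd-B was the widest of replicate 1 and ranked 2 by width in replicate 2 and in the combined list. The cluster over Ubx ranked 9, 26 and 25 by width in replicate 1, replicate 2 and the combined list. By score, for which no source used here gives a unit, the abd-A and Abd-B cluster ranked 38 of 2510 in replicate 1 and 9 of 1819 in replicate 2. The Ubx cluster ranked 67 in replicate 1 and 24 in replicate 2, below the other in both. Among clusters of 5 kb or more, the abd-A and Abd-B cluster ranked 33 of 369 in replicate 1 and 8 of 426 in replicate 2, and the Ubx cluster 61 and 23 in these lists. The narrow outer pieces ranked below the median score of their lists. They ranked 1377 and 1794 of 2510 in replicate 1, and 1554 and 1801 of 1819 in replicate 2. By width these pieces ranked 731 and 2188 in replicate 1, and 1618 and 1388 in replicate 2, in the same order.

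Other genes of 3R with cover most like that of the Hox genes were sought among the 449 genes of 10 kb or more outside the window. Likeness was the sum of the absolute differences in covered share from the mean of the 3 members, 99.4% in replicate 1 and 100% in replicate 2, over these 2 lists. The 5 closest were ss, srp, hh, Antp and zfh1, with sums between 0.164 and 0.626 percentage points. The transcription factor genes ss (spineless) and srp (serpent) had 99.2% and 99.1% in replicate 1, and hh, which encodes the Hedgehog ligand, had 99.7%. Antp, the Hox gene of the middle thorax, had 99.8%, and zfh1, a zinc finger and homeodomain factor, had 99.98%. All 5 had 100% in replicate 2. Another 11 genes of this length were covered at every base in both replicates, so the order among such genes rests on differences of under 1 percentage point. Only Ubx, at 98.1% in replicate 1, took the mean of the members below 100%. The rule therefore placed genes with a small shortfall in replicate 1 above fully covered ones, which match abd-A and Abd-B.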

How the data were processed

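ChIP-seq for H3K27me3 was deposited as 3 lists of enriched regions in GFF3 format, on FlyBase release 5 per the file headers. Bowtie 0.12.7 is named in the submitters' processing notes. How clusters were called, and how the combined list arose, were not given in the sources used here. The score column of the deposited lists has no stated unit and served only for ranks and filters inside a list. Cluster positions were used as deposited, 1-based.

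Covered shares are base pairs under clusters over base pairs of the region, computed per list with Python 3.11.15, numpy 2.4.6 and pandas 2.3.3; plots used matplotlib 3.10.9. Errors are the SD of 2 replicate lists. Genes came from RefSeq on release 6, shifted by the 3R offset of 4174278 bp. Its fit to single bases could not be checked against sequence, so gene spans were also moved by 1 kb. Interval arithmetic was tested on simulated data and gave 0 mismatches with single-base counting in 50 simulations.

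Named genes are the members, all other genes of the window, the first coding gene beyond each outermost cluster, the 5 most alike in cover and 2 gene lists. Fas1, under the next cluster to the left, and the genes at 0% from lab to Antp were named after their values were seen. Members, lists and alternatives were chosen with earlier results of these data known. Read depth is unknown, and input libraries were not analysed here.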

Additional observations from a re-analysis of the deposited data

How the results depend on the processing

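Of 58 alternative values, 22 concern abd-A, Abd-B and the spacer between them, which are at 100% with no spread and say little on stability. Another 10 are single replicates. Of the other 26, 17 stayed within a set limit. The limit was the spread between replicates, 1.5 times for counts, or, for the overlap of the replicates, a binomial interval over base pairs. Base pairs under 1 cluster are not independent, so that interval is no guide to the stability of the overlap. Limiting the window to Ubx through Abd-B gave a covered share of 98.5% and an overlap of the replicates of 99.5%, since it drops the flanks. Keeping clusters with a score at or above the list median, or those of 5 kb or more, left 2 pieces in the window and an overlap of 96.9%, as both remove the narrow outer pieces. The combined list gave 94.4% for the spacer between Ubx and abd-A. The share of 3R genes with at least 50% cover, 9.21% on average, became 7.39% at 90% cover and 7.43% for protein-coding genes. Moving gene spans by 1 kb, an alternative chosen after seeing the data, gave 98.1% and 99.7% for Ubx and 100% for abd-A and Abd-B. A single replicate always lies within 1 SD of a mean over 2, so those values say nothing on stability either. No paired analysis was possible because only the ChIP group has lists and nothing was tested between groups. Depth is unknown, so the precision of single edges is unknown too.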
